A study of Mus musculus with 4 samples.

Results

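The genes described here are Grem1, which encodes the secreted protein Gremlin 1, and 9 further genes of the bone morphogenetic protein (BMP) pathway, namely the antagonists Nog and Chrd, the ligands Bmp2, Bmp4 and Bmp7, the receptors Bmpr1a and Bmpr2 and the target genes Id1 and Id3. Every array probe whose accession maps to one of these 10 symbols was taken, which gave 12 of 56605 gene probes on the array, and 22911 genes were named in all. Grem1 was singled out because its signal was lower on the MOTS-c arrays of this same comparison, so its values are a description, no p-value is given for it, and its place in the counts of called probes below follows from that choice. The other 9 genes were listed for their roles in the pathway.

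MOTS-c is a short peptide encoded in the mitochondrial genome, and the scrambled peptide holds its amino acids in another order. Islet cells came from C57BL/6 mice, 4 littermates labelled as male and 60 weeks of age, and were dispersed to single cells before they received either peptide at 10 μM for 24 h outside the animal. RNA of 2 samples given scrambled peptide (replicates 1 and 2) and 2 samples given MOTS-c (replicates 2 and 3) was hybridized to 4 single-color Agilent arrays on 1 slide. The littermates are not assigned to samples in the labels, so the p-values below measure the spread between these 4 samples. With 2 arrays against 2, an exact permutation test of a single value (two-sided) cannot fall below p = 0.333.

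BMPs are secreted ligands of the TGF-β superfamily. They bring together type I and type II receptor kinases at the cell surface, which phosphorylate SMAD1, SMAD5 and SMAD9, and these enter the nucleus with SMAD4 and switch on genes such as those of the Id family. Secreted antagonists, among them Gremlin 1, Noggin and Chordin, bind the ligands and keep them from their receptors. In islets, β-cells carry BMPR1A, and signaling through it is known to bear on insulin secretion in mice.

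Spots flagged by the scanner software as well above their local background made up 61.6% to 65.0% of gene spots on the 4 arrays, and 0 gene spots were saturated. A probe was tested when it was well above background on at least 2 arrays, which held for 35087 probes. The islet hormone genes Ins1, Ins2, Gcg and Sst were well above background on all 4 arrays, while Ucn3, a marker of mature β-cells, was so on none. The Y-linked genes Uty, Kdm5d, Eif2s3y and Ddx3y were read by 7 probes on 4 arrays. In contrast to the labelled sex, 0 of these 28 probe readings passed the background flag, and the Xist probe passed it on all 4. This held in both groups, so results that leave out such arrays cannot be given. Each array measured a mixture of cells, in which fewer cells of a type and less RNA per cell cannot be told apart.

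Grem1 had the lowest log2 fold change of all tested BMP pathway genes. Its probe (A_52_P481957) had a log2 signal of 6.70 and 6.78 on scrambled replicates 1 and 2 and of 5.48 and 5.18 on MOTS-c replicates 2 and 3. The groups did not overlap, and the gap that parted them was 1.22 on the log2 scale, while the scrambled arrays lay 0.080 apart and the MOTS-c arrays 0.296 apart. The mean log2 signal was 6.74 ± 0.06 for scrambled peptide and 5.33 ± 0.21 for MOTS-c (SD, n = 2 each), a log2 fold change of -1.41 (standard error, SE, 0.15), or a 2.66-fold lower signal. Before normalization the spot stood at 4.09 and 4.98 times its local background with scrambled peptide and at 2.13 and 1.92 times with MOTS-c, and it was well above background on each. Among the 35087 tested probes, its log2 fold change was number 53 counted from the lowest. Of the 3869 probes whose mean log2 signal lay within 0.5 of that of Grem1, 7.24% differed by 1.5-fold or more between the groups. Since Grem1 was chosen on this contrast, nothing is read from its rank or from this share. Its log2 fold change was -0.79 under the normexp background correction, which adds an offset to every signal.

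Promoter sequences were available for 6 of the 10 genes in the RefSeq promoter table of GRCm38.p6 (Grem1, Chrd, Bmp4, Bmpr1a, Bmpr2 and Id3). The 250 bases before the annotated start site are shown for Grem1, as the gene with the largest difference, for Bmpr1a, as the receptor whose groups did not overlap in the other direction, and for Id3, as a transcriptional target of the pathway. They lie at chr2:113758649-113758898 on the minus strand for Grem1, at chr14:34502547-34502796 on the minus strand for Bmpr1a and at chr4:136143572-136143821 on the plus strand for Id3. Each is written 5′ to 3′, and capitals mark GGCGCC, a GC-rich sequence known to be bound by SMAD proteins of the BMP branch.
Grem1: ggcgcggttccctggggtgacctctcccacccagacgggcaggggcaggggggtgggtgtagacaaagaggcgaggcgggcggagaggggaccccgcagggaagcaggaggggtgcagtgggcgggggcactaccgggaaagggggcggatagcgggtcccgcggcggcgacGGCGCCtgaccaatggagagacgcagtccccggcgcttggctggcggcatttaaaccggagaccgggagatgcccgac
Bmpr1a: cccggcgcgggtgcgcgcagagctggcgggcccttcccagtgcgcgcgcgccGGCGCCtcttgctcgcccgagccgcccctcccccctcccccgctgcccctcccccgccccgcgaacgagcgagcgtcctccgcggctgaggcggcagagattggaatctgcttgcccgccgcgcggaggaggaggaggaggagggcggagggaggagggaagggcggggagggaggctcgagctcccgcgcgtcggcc
Id3: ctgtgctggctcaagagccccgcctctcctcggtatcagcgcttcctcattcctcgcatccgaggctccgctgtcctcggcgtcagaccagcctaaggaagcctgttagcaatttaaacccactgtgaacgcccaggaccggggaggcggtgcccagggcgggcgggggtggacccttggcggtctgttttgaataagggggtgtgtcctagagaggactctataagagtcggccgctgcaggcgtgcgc
GGCGCC, which reads the same on both strands, began 78 bases before the start site in Grem1 and 198 bases before it in Bmpr1a. It also began 203 bases before the start site of Chrd and 105 bases before that of Bmpr2, and these letters were not in the windows of Bmp4 and Id3. Of 32851 windows of the same length, 9.59% held GGCGCC. The palindrome GTCTAGAC, another SMAD binding sequence, was found in 0.167% of all windows and TATAAA, the TATA box, in 12.4% on either strand, and neither was in the 6 windows searched. The windows shown had a G and C content of 72.0% for Grem1, 78.8% for Bmpr1a and 62.8% for Id3, and the median over all windows was 52.4%.

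The other antagonists among the 10 genes, Nog and Chrd, differed by less. Nog, which encodes Noggin, had a log2 signal of 4.62 and 4.25 with scrambled peptide and of 4.08 and 4.09 with MOTS-c. The MOTS-c arrays were the lower in each case, but this probe stood at only 1.46 to 1.70 times its local background and was flagged as well above it on 3 of the 4 arrays, 1 scrambled and 2 MOTS-c. Its log2 fold change was -0.35 (SE 0.17, limma adjusted p = 0.704). Chrd, which encodes Chordin, had log2 signals of 6.04 and 6.00 with scrambled peptide and of 5.98 and 5.96 with MOTS-c. These groups did not overlap either, by a margin below the standard error, and the log2 fold change was -0.05 (SE 0.12, limma adjusted p = 0.945).

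The ligand genes were dim on these arrays. Bmp2, a ligand that Gremlin 1 binds, had log2 signals of 5.12 and 5.51 with scrambled peptide and of 5.66 and 5.48 with MOTS-c. The groups overlapped, with a log2 fold change of 0.25 (SE 0.18, limma adjusted p = 0.791). Bmp4, bound by the same antagonists, had a pair of probes. The brighter (A_55_P2154387) had log2 signals of 3.90 and 4.67 with scrambled peptide and of 4.66 and 4.73 with MOTS-c, and its log2 fold change of 0.41 (SE 0.28, limma adjusted p = 0.781) came with overlapping groups. Scrambled replicate 1 alone was low for this probe, and it was the 1 array on which the spot was not well above background. Without scrambled replicate 2 the log2 fold change was 0.78, and without scrambled replicate 1 it was 0.02. The dimmer Bmp4 probe (A_51_P383741) was well above background on no array, with spot signals of 0.976 to 1.19 times the local background, and was not tested. The Bmp7 probe was well above background on 1 MOTS-c array only and was not tested either. Normalized with all probes, Bmp7 had log2 signals of 3.00 and 4.08 with scrambled peptide and of 3.10 and 3.67 with MOTS-c, the MOTS-c values lying inside the scrambled range.

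Bmpr1a, the type I receptor gene, was read by a pair of probes, and at each of them the MOTS-c arrays had the higher signals, without overlap. The brighter probe (A_55_P2800631) had log2 signals of 11.14 and 10.87 with scrambled peptide and of 11.20 and 11.51 with MOTS-c, a log2 fold change of 0.34 (SE 0.18, limma adjusted p = 0.722). That value was 0.19 without MOTS-c replicate 3 and 0.21 without scrambled replicate 2. The other (A_55_P2589310) had log2 signals of 6.54 and 6.40 with scrambled peptide and of 6.69 and 6.78 with MOTS-c, a log2 fold change of 0.27 (SE 0.13, limma adjusted p = 0.703). Averaged over its probes, Bmpr1a had a log2 fold change of 0.31. Bmpr2, the type II receptor gene, had log2 signals of 11.29 and 10.83 with scrambled peptide and of 10.97 and 11.67 with MOTS-c. MOTS-c replicate 3 was the highest and scrambled replicate 2 the lowest, the groups overlapped, and the log2 fold change was 0.26 (SE 0.30, limma adjusted p = 0.873). Without MOTS-c replicate 3 it was -0.09.

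**Figure D1:**
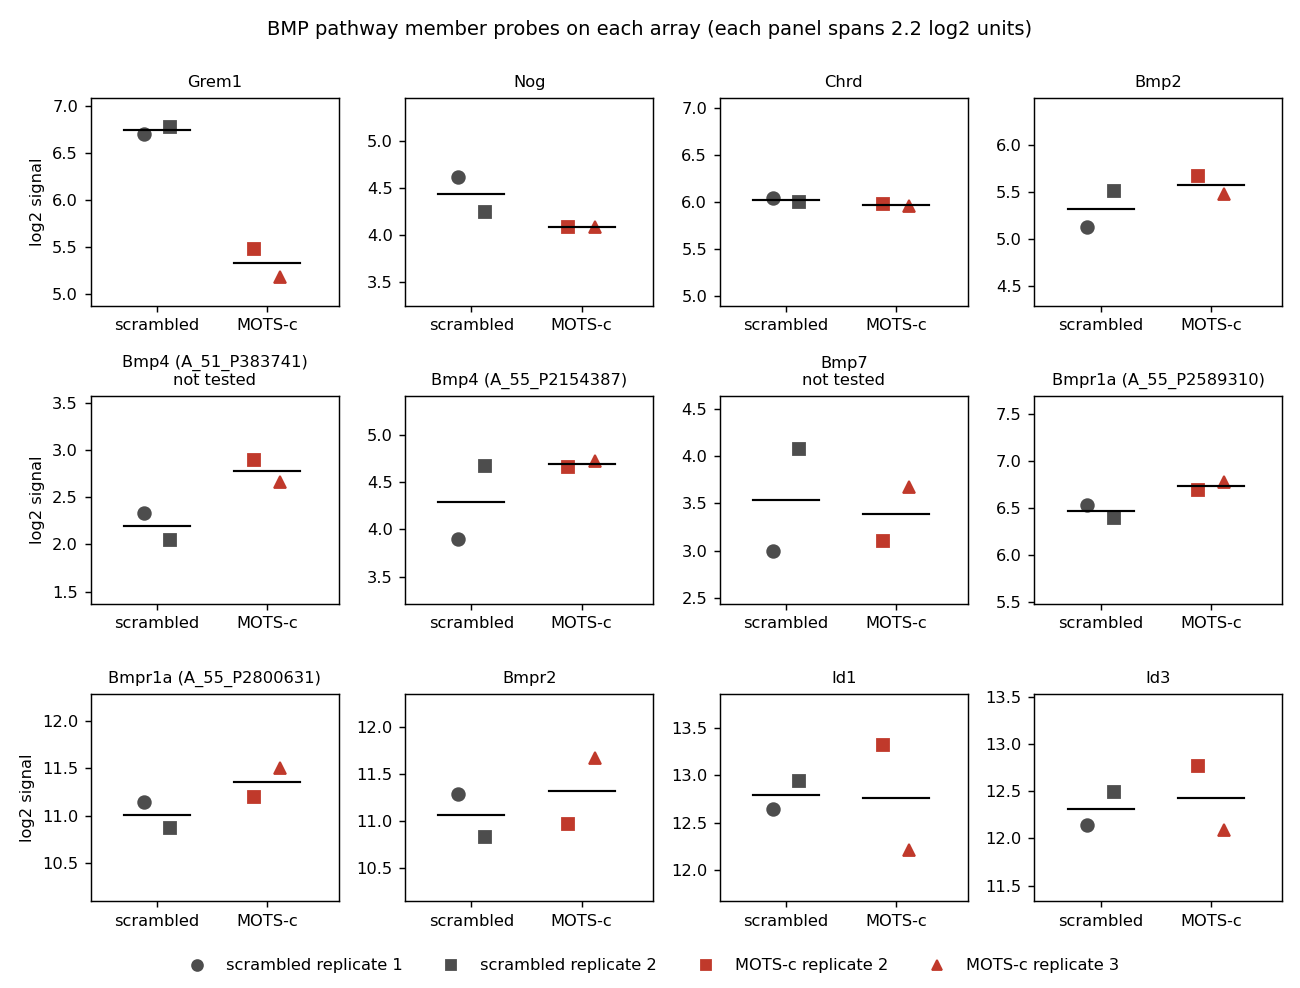
Log2 signal after quantile normalization (y axis) of the 12 probes of the 10 genes on each array, with scrambled arrays in gray and MOTS-c arrays in red, the marker shape giving the replicate number, horizontal lines the group means (n = 2) and the same y range in every panel. Grem1 lies between 6.70 and 6.78 on the scrambled arrays and between 5.18 and 5.48 on the MOTS-c arrays, while Id1 spans 12.21 to 13.32 within the MOTS-c group.

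Id1 and Id3, which encode inhibitors of basic helix-loop-helix transcription factors and are induced by the BMP SMADs, did not separate the groups. Id1 had log2 signals of 12.65 and 12.94 with scrambled peptide and of 13.32 and 12.21 with MOTS-c, so that MOTS-c replicate 2 was the highest and MOTS-c replicate 3 the lowest of the 4 arrays. Its log2 fold change was -0.03 (SE 0.40, limma adjusted p = 0.995), and the 95% confidence interval of that difference ran from -1.07 to 1.01. Id3 had log2 signals of 12.14 and 12.49 with scrambled peptide and of 12.77 and 12.10 with MOTS-c. Again MOTS-c replicate 2 was the highest and MOTS-c replicate 3 the lowest, with a log2 fold change of 0.12 (SE 0.28, limma adjusted p = 0.947) and a 95% confidence interval from -0.61 to 0.84. These intervals take in changes of 1.5-fold in either direction, so 4 arrays do not show that the Id genes were unaltered. Leaving out MOTS-c replicate 2 gave log2 fold changes of -0.59 for Id1 and -0.22 for Id3, and leaving out MOTS-c replicate 3 gave 0.53 and 0.46.

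Of the 12 probes, 8 passed the background flag on every array, 10 were tested and 2 were not. At an adjusted p under 0.05 limma called 0 of the 10, and 0 of all tested probes (0%), where the lowest adjusted p was 0.474. Over all tested probes 2755 had an unadjusted p under 0.05, and the methods' t-test called 1 probe after adjustment, that of the histone gene H2ac12 (log2 fold change 0.02), named after its values were seen. By the rule of 1.5-fold or more together with an unadjusted p under 0.05, 1 member probe was called lower, that of Grem1, and 0 were called higher, against 2.43% of all tested probes lower and 1.10% higher. Groups did not overlap for 5 of the 10 tested probes, 3 lower and 2 higher with MOTS-c, against 38.0% of all tested probes. Because Grem1 was chosen on this contrast, nothing is read from its own call. The other 9 tested probes held 0 calls under either rule and 0 unadjusted p-values under 0.05, and 4 of them had groups that did not overlap. Their median log2 fold change was 0.25, and that of all tested probes was 0.01.

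In a wider list of 68 BMP pathway genes, each followed through its brightest probe, 48 were tested, 43 were well above background on every array and 18 on none. At these probes 0 genes other than Grem1 were called at an unadjusted p under 0.05 with 1.5-fold or more. Groups did not overlap for 21 of the 48, beside 38.0% of all tested probes. With MOTS-c 18 of the 48 were lower and 30 higher, with a median log2 fold change of 0.10, beside 16517 lower and 18570 higher of all tested probes. Fstl3 and Rgma were the genes other than Grem1 with an unadjusted p under 0.05, and 0 of the 48 passed the adjustment.

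Of 18 antagonist genes 11 were tested, and 7 of these had lower and 4 higher means with MOTS-c, with a median log2 fold change of -0.19. Chrdl2, which encodes a chordin-like BMP binding protein, had log2 signals of 9.81 and 9.95 with scrambled peptide and of 9.69 and 8.67 with MOTS-c. The groups did not overlap, but MOTS-c replicate 3 alone made most of the log2 fold change of -0.70 (SE 0.36, limma adjusted p = 0.715), which was -0.20 without it. Fstl3, whose product binds activins and some BMPs, went the other way, with log2 signals of 8.58 and 8.73 against 9.21 and 9.10, no overlap, and a log2 fold change of 0.50 (SE 0.13, limma adjusted p = 0.538). Bambi, a pseudoreceptor that dampens BMP signaling and is itself a known BMP target, had log2 signals of 12.81 and 12.84 against 12.61 and 12.63, a log2 fold change of -0.20 (SE 0.12, limma adjusted p = 0.745).

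Of 16 ligand genes 7 were tested and 7 were well above background on no array, with a median log2 fold change of -0.11 over the tested ones. The 2 largest differences were lower with MOTS-c. Gdf10, which encodes BMP3b, had log2 signals of 11.88 and 11.29 with scrambled peptide and of 10.51 and 11.16 with MOTS-c. The groups did not overlap, and the log2 fold change was -0.75 (SE 0.31, limma adjusted p = 0.675). It passed the 1.5-fold rule under the 75th percentile shift, under normexp and with a trend in limma, and its log2 fold change was -0.43 without MOTS-c replicate 2, -0.46 without scrambled replicate 1 and -1.08 without MOTS-c replicate 3. Gdf2, which encodes BMP9, had log2 signals of 7.75 and 6.95 against 6.06 and 7.44, overlapping groups and a log2 fold change of -0.60 (SE 0.54, limma adjusted p = 0.833). MOTS-c replicate 2 set its direction, with 0.09 when that array was left out and -1.29 when MOTS-c replicate 3 was.

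Receptors and coreceptors had higher means with MOTS-c in 7 of the 10 tested of 12 listed, with a median log2 fold change of 0.21. Rgma, a BMP coreceptor gene, had log2 signals of 7.19 and 6.89 with scrambled peptide and of 7.40 and 7.82 with MOTS-c, a log2 fold change of 0.57 (SE 0.21, limma adjusted p = 0.615) without overlap, which was 0.36 without MOTS-c replicate 3. The brightest probe of Acvr2a, a type II receptor gene shared with activins, had log2 signals of 7.10 and 6.71 against 6.96 and 7.81, with overlap and a log2 fold change of 0.48 (SE 0.33, limma adjusted p = 0.783). It was 0.05 without MOTS-c replicate 3 and 0.90 without MOTS-c replicate 2. A second Acvr2a probe (A_52_P575854), named after its values were seen, had a log2 fold change of 0.63 (SE 0.14, limma adjusted p = 0.509) with no overlap, and met the 1.5-fold rule at an unadjusted p under 0.05.

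All 8 genes of SMADs and their regulators were well above background on every array, and 7 of the 8 had higher means with MOTS-c, by a median log2 fold change of 0.12. Smad1 was the exception, with log2 signals of 12.68 and 12.68 with scrambled peptide and of 12.55 and 12.46 with MOTS-c, and a log2 fold change of -0.18 (SE 0.12, limma adjusted p = 0.778). The other SMADs that BMP receptors phosphorylate had log2 fold changes of 0.03 for Smad5 (SE 0.14, limma adjusted p = 0.973) and 0.12 for Smad9 (SE 0.20, limma adjusted p = 0.918). Smurf2, a ubiquitin ligase gene that acts on SMADs and receptors, had a log2 fold change of 0.26 (SE 0.15, limma adjusted p = 0.736) without overlap, and its second probe had -0.06. Lemd3, which encodes a nuclear membrane protein that restrains SMAD signaling, had a log2 fold change of 0.20 (SE 0.14, limma adjusted p = 0.794) without overlap. The 4 probes of Smad4, the common partner SMAD, had log2 fold changes from 0.06 to 0.26, and its brightest probe had 0.19 (SE 0.14, limma adjusted p = 0.788).

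**Figure D2:**
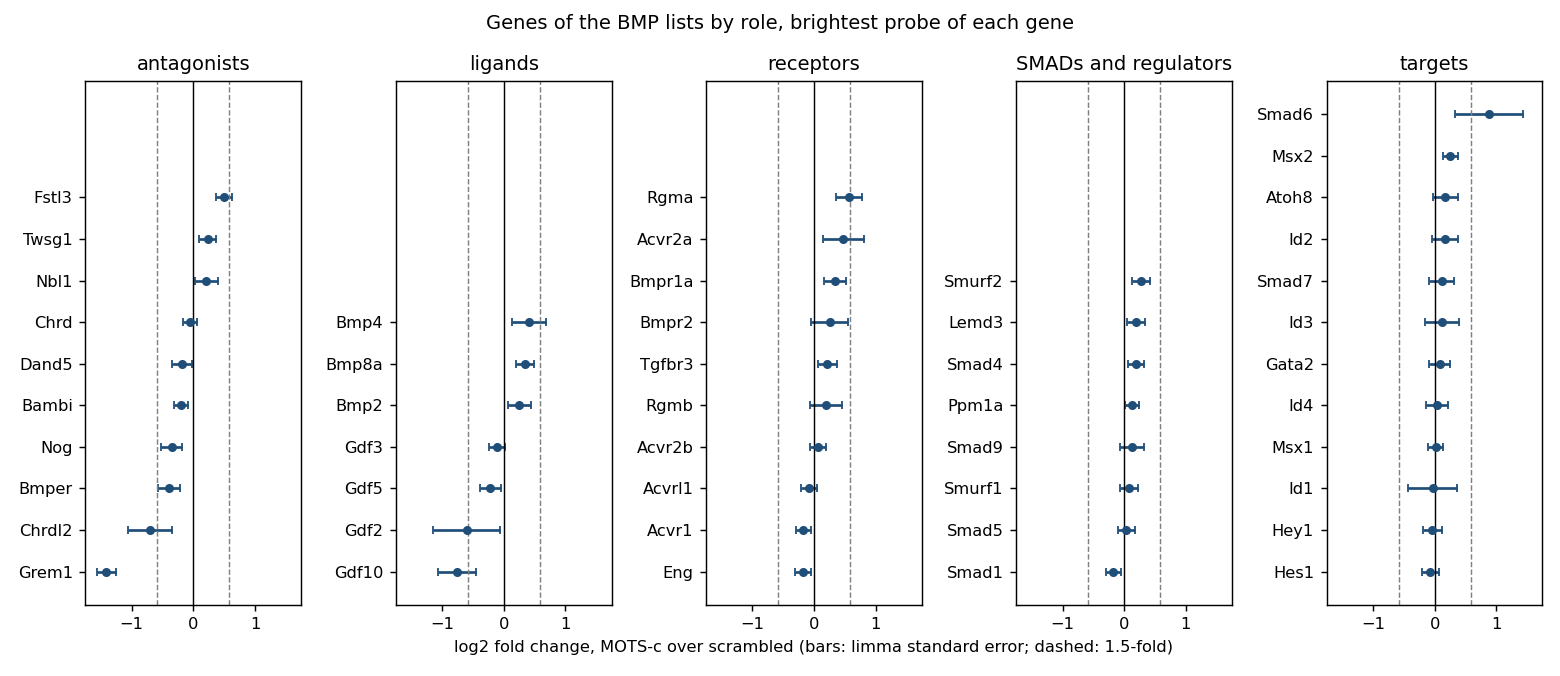
Log2 fold change of MOTS-c over scrambled (x axis) for tested genes of each role, 1 point a gene at its brightest probe, with bars of 1 limma standard error and dashed lines at 1.5-fold in either direction. Grem1, chosen on this contrast, lies at -1.41, apart from the other antagonists, and the SMADs and their regulators lie between -0.18 and 0.26.

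Of 14 listed target genes of the pathway 12 were tested, with a median log2 fold change of 0.10. By the 1.5-fold rule 0 were called, beside 2.43% of all tested probes lower and 1.10% higher. Groups did not overlap for 1 of the 12, Msx2 (log2 fold change 0.26, SE 0.12, limma adjusted p = 0.695), beside 38.0% of all tested probes. The Msx2 probe was dim, at 1.88 to 2.24 times its local background. Atoh8, a transcription factor gene, had a log2 fold change of 0.17 (SE 0.20, limma adjusted p = 0.873) with overlap, which was -0.04 without MOTS-c replicate 2. Id2 had log2 signals of 12.36 and 12.67 with scrambled peptide and of 12.89 and 12.47 with MOTS-c, and Smad7, an inhibitory SMAD induced by the pathway, had 8.40 and 8.70 against 8.87 and 8.47 at its brightest probe. For both genes MOTS-c replicate 2 was the highest array, as it was for Id1 and Id3, and scrambled replicate 1 the lowest. A dimmer Smad7 probe (A_55_P2741400), named after its values were seen, had a log2 fold change of 0.49 (SE 0.15, limma adjusted p = 0.564) with no overlap. Smad6, the other inhibitory SMAD gene, had the widest range, with log2 signals of 3.32 and 4.67 against 5.35 and 4.40, and was well above background on 3 arrays. Its log2 fold change of 0.88 (SE 0.56, limma adjusted p = 0.764) became 0.20 when scrambled replicate 1 was left out and 1.52 when scrambled replicate 2 was. The spread over the 4 arrays was 1.11 on the log2 scale for Id1, 0.676 for Id3, 0.535 for Id2, 0.466 for Smad7 and 0.356 for Id4, against 1.60 for Grem1. In Grem1 most of this spread lay between the peptides, which follows from its choice on this contrast. In Id1 and Id3 the spread lay between the MOTS-c replicates.

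**Figure D3:**
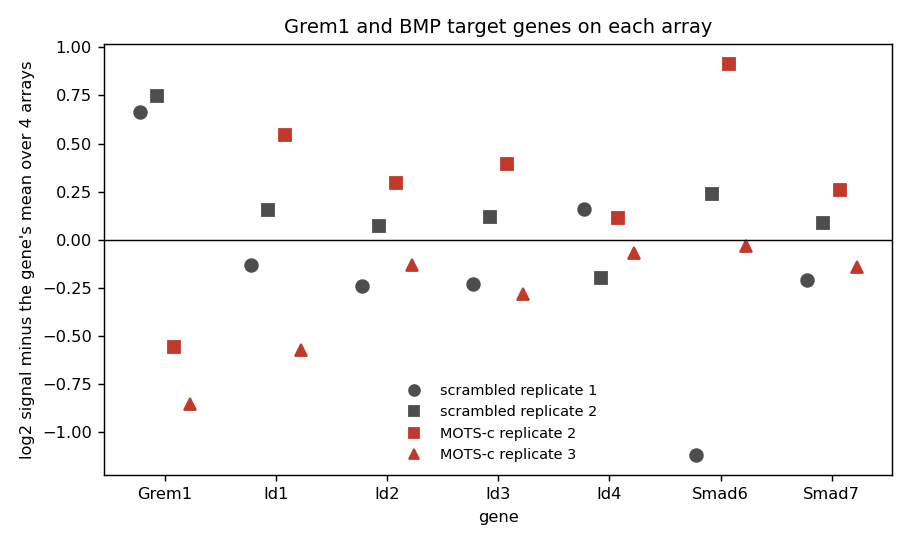
Log2 signal of Grem1 and of 6 target genes on each array, minus the mean of the gene over the 4 arrays (y axis), with scrambled arrays in gray, MOTS-c arrays in red and the marker shape giving the replicate number. Grem1, chosen for its difference between the groups, separates them, and MOTS-c replicate 2 is the highest array for Id1, Id2, Id3, Smad6 and Smad7.

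Among 14788 named genes well above background on all 4 arrays, the 5 whose brightest probe ran closest to Grem1 over the 4 arrays were Gm30908, Shisal2a, Gpr179, Hkdc1 and Pax8. After each gene was centered on its own mean, their Euclidean distances to Grem1 were 0.106, 0.166, 0.174, 0.235 and 0.254 on the log2 scale. Their log2 fold changes were -1.31, -1.26, -1.41, -1.33 and -1.37. Likeness over 4 arrays rests mostly on the difference between the groups, which is the value that Grem1 was chosen for. No other BMP pathway gene was among these 5, and the distance was 0.871 for Chrdl2 and 1.05 for Gdf10.

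Gremlin 1 is known as a product of fibroblasts and other mesenchymal cells, so the markers of these cells were read on the same arrays. Of 12 mesenchymal markers 4 were tested, all 4 well above background on every array, and 8 were well above background on no array, among them the defining genes Col1a1, Col3a1, Dcn, Lum and Pdgfrb. The 4 tested markers, Pdgfra, Col1a2, Acta2 and Thy1, each had a lower mean with MOTS-c, with a median log2 fold change of -0.22. Pdgfra, a receptor of fibroblasts, had log2 signals of 6.37 and 5.76 with scrambled peptide and of 5.39 and 4.65 with MOTS-c. The groups did not overlap, and its log2 fold change was -1.05 (SE 0.34, limma adjusted p = 0.567), which passed the 1.5-fold rule at an unadjusted p under 0.05. It did not pass under normexp (-0.40) or by the methods' t-test. The log2 fold change of Pdgfra was -0.74 without scrambled replicate 1 and -0.68 without MOTS-c replicate 3, the array on which its spot stood at 1.74 times its local background. Pdgfra ranked number 204 by distance to Grem1 of the 14788 genes, at 0.683. Summed over all 12 markers, the 8 dim ones included, the signal was 5780 and 5315 with scrambled peptide against 5036 and 4971 with MOTS-c. Without Acta2, the brightest, this sum was 360 and 425 against 356 and 289. The part of mesenchymal cells in the lower Grem1 signal was not tested.

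**Figure D4:**
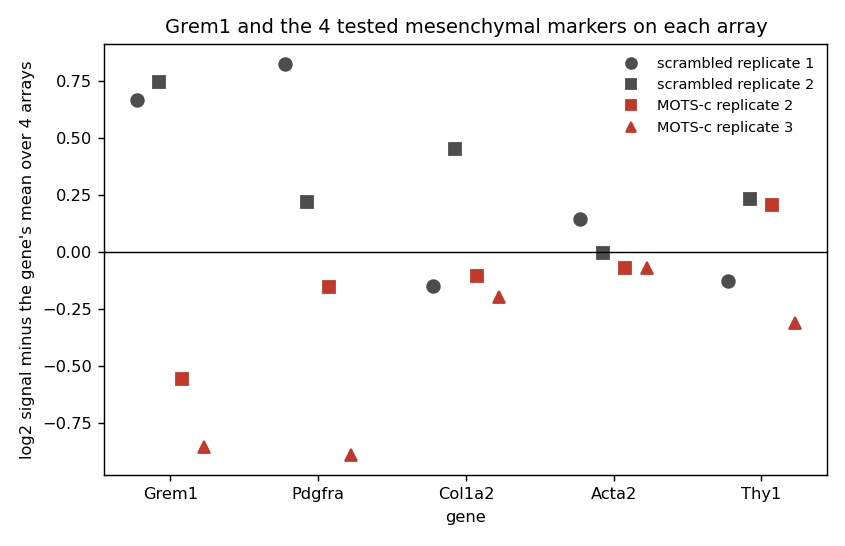
Log2 signal of Grem1 and of the 4 tested mesenchymal markers on each array, minus the mean of the gene over the 4 arrays (y axis), with scrambled arrays in gray, MOTS-c arrays in red and the marker shape giving the replicate number. Grem1, chosen on this contrast, and Pdgfra are lower on both MOTS-c arrays, by log2 fold changes of -1.41 and -1.05. Acta2 is also lower without overlap, by a log2 fold change of -0.14, and the groups overlap for Col1a2 and Thy1.

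Markers of the other cell types were read in the same way. The summed signal of the 8 acinar markers was 3570 and 3898 with scrambled peptide against 2499 and 2031 with MOTS-c. Nearly all of it came from Cela1, and 2 of the 8 were tested. Cela1 had a log2 fold change of -0.76 (SE 0.16, limma adjusted p = 0.499) and the other tested marker, Ctrb1, one of 0.33 (SE 0.17, limma adjusted p = 0.726), both without overlap and with a median of -0.21. The acinar enzyme genes Prss2, Amy2a5, Cpb1 and Pnlip were well above background on no array. The 5 tested macrophage markers of 10 had a median log2 fold change of -0.20, from -0.67 for C1qa (SE 0.20, limma adjusted p = 0.548) to 0.51 for Cd14 (SE 0.19, limma adjusted p = 0.628), and 3 were lower and 2 higher. Median log2 fold changes were 0.04 over 4 tested endothelial markers of 10, 0.00 over 5 ductal markers of 8, -0.05 over 9 β-cell markers of 10 and 0.32 over 7 α-, δ- and PP-cell markers of 8. Among the β-cell markers Slc2a2, the glucose transporter gene, was called lower by the 1.5-fold rule, with a log2 fold change of -1.33 (SE 0.14, limma adjusted p = 0.474). This probe was dim, at 1.31 and 1.33 times its local background on the MOTS-c arrays and well above it on 1 of them, so the size of that difference is uncertain. The part of these cells in the values above was not tested.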

How the data were processed

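Gene expression of islet cells given MOTS-c or scrambled peptide (n = 2 each) was measured on Agilent mouse arrays. Spots were read by the authors with Feature Extraction (version 11.0.1.1 in the scanner output) after Cy3 labeling. The deposited intensity values carry a background correction made array by array, and no step had set the arrays to a common scale. A further deposited table holds the same intensity values rounded.

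After removal of control spots and outlier flags, log2 intensities were averaged by probe. Quantile normalization was run on probes that passed the background flag on 2 or more arrays, whatever their group. MOTS-c and scrambled were compared with limma (version 3.58.1, R 4.3.3) over 35087 probes with Benjamini-Hochberg adjustment. The arrays left 2 residual degrees of freedom, to which limma added 2.64. Values of probes that were not tested come from a normalization of all probes. Symbols of 32994 probes came from the array files and the RefSeq gene table of GRCm38.p6.

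The genes, wider lists and markers were chosen with earlier results of these data known. Named genes are the members, genes of the wider lists past the 1.5-fold rule, the 2 largest differences of each role among genes well above background on all 4 arrays, Smad1, Smad5 and Smad9, the 5 genes nearest Grem1 and markers. Other genes are given beyond this rule. Some genes counted in the lists are not reported here by name. The alternatives were a 75th percentile shift, normexp background correction (offset 50, on median spot signals), the rounded table, no or a strict filter on dim probes, limma with a trend, the methods' t-test, gene means and leaving out each array. The fit was tested on simulated data. The number of arrays limits the precision.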

Additional observations from a re-analysis of the deposited data

How the results depend on the processing

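Over 29 log2 fold changes (the tested member probes and further genes of the wider lists and Pdgfra), 0 of 144 values from other processing changed sign, and 13 of 116 values with 1 array left out did, in 9 results. Bmpr2 was at -0.093 without MOTS-c replicate 3 (range -0.093 to 0.60). Id1 was at 0.12 without scrambled replicate 2 and 0.53 without MOTS-c replicate 3 (range -0.59 to 0.53). Id3 was at -0.06 without scrambled replicate 1 and -0.22 without MOTS-c replicate 2 (range -0.22 to 0.46). With 1 array left out, the ranges were -1.29 to 0.087 for Gdf2, -0.049 to 0.11 for Smad5, -0.10 to 0.35 for Smad9, -0.043 to 0.39 for Atoh8, -0.048 to 0.38 for Id2 and -0.082 to 0.32 for Smad7. Grem1 ranged from -1.55 to -1.26 with 1 array left out and was at -0.79 under the normexp correction, whose offset of 50 is added to every signal and compresses dim probes. Under normexp Nog was at -0.07, Bmp4 at 0.16 and the dimmer Bmpr1a probe at 0.04.

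The 1239 probes called by the 1.5-fold rule over all tested probes became 406 under normexp, 457 by the methods' t-test and 1374 to 3264 with 1 array left out, the highest without MOTS-c replicate 2. At an adjusted p under 0.05 the count of 0 became 1 by the methods' t-test and was 0 to 0 with 1 array left out. Member probes called, 1 in the report, were 2 without a filter on dim probes (the dimmer Bmp4 probe, 0.59) and 1 to 2 with 1 array left out, where Bmp4 (0.78) was added without scrambled replicate 2 and Id1 (-0.59) without MOTS-c replicate 2. Wider list genes called, 1 in the report, were 2 under the 75th percentile shift and 2 under normexp, both with Gdf10 added, 3 with a trend in limma (Gdf10 and Chrdl2 added) and 2 to 5 with 1 array left out. The cause was not tested. With an array left out, the lone sample of a group is assumed to vary like the other group.

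No paired analysis was possible because the groups share 1 replicate number only. Dim probes, among them Nog, Bmp4, Bmp7, Smad6 and Slc2a2, limit what can be said of those genes.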
